A study of Mus musculus with 2 samples.

Results

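Fc receptors bind the constant part of antibodies, and their genes were followed here through the cells of a mouse breast tumour and its lymph nodes. The 8 genes were taken by symbol from the gene lists of both libraries, where all 8 were present among 22620 genes: Fcgr1, Fcgr2b, Fcgr3, Fcgr4, Fcer1g, Fcer2a, Fcmr and Fcgrt. Their UMIs (unique molecular identifiers, which count captured RNA molecules) were summed over B, NK, dendritic, macrophage, monocyte and neutrophil cells, which made up 1296 of 8719 kept cells of the primary tumour (PT) and 4857 of 9689 kept cells of the lymph node (LN). T and cancer cells, which should mostly lack the IgG receptors, gave the background level for these.

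The cells came from female C57BL/6J mice bearing EO771-HEVM3 tumours. EO771 is a mouse mammary carcinoma line, and HEVM3 is a derivative of it obtained over 3 rounds of in vivo selection for cells that reach the lung by way of the high endothelial venules of lymph nodes, so that a single selected line stands for the tumour. PT tissue and paired LN tissue were each pooled from 6 mice into 1 unsorted 10x Genomics 3′ library, PT digested with collagenases and hyaluronidase and LN, for a shorter time, with collagenase P, dispase and DNase, and both were treated with red cell lysis buffer. No mouse without a tumour was included, and the ages of these mice were not given in the labels. With 1 library per tissue and no record of which cell came from which mouse, no difference between tissues or classes was tested: intervals in brackets are 95% exact intervals that cover counting error only, and differences between mice, digestions and libraries cannot be told apart from differences between tissues.

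In all, 105387716 UMIs were held by the kept PT cells (a median of 9361 each) and 50304475 by those of LN (2324 each). Classes were named from marker genes that include no Fc receptor gene, and clusters were built without the 8 genes, so that each class name stands for cells like that type. All markers of a class had UMIs in that class, except Cd209a in PT dendritic cells. Levels are given for a class in a library with at least 20 cells, which left out B cells of PT (8 cells) and macrophages of LN (7 cells). The 2 libraries shared 47 cell barcodes (0.378% of PT and 0.405% of LN), of which 31 were kept in both and 5 carried the same class in both.

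Receptors for IgG come as activating and inhibitory forms. Fcgr1, Fcgr3 and Fcgr4 encode the ligand-binding chains of activating receptors, which carry no signalling motif of the ITAM kind of their own and pair with the FcR gamma chain encoded by Fcer1g, through which the kinase Syk is recruited. Fcgr2b encodes the inhibitory receptor, whose ITIM recruits the phosphatase SHIP1 (Inpp5d) and which is the IgG receptor of B cells. Fcer2a encodes CD23, the low-affinity IgE receptor, Fcmr the receptor for IgM, and Fcgrt the heavy chain of FcRn, which pairs with B2m and returns IgG and albumin from endosomes to the cell surface.

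In the GENCODE mouse release 21 annotation of GRCm38, 5 of the 8 genes lie on chromosome 1. Fcgr2b (chr1:170958617-170976547, minus strand), Fcgr4 (chr1:171018920-171029761, plus strand), Fcgr3 (chr1:171051174-171064935, minus strand) and Fcer1g (chr1:171229572-171234365, minus strand) follow each other within 275749 bases, with 0 protein-coding genes between Fcgr2b, Fcgr4 and Fcgr3 and 7 between Fcgr3 and Fcer1g. Fcmr lies apart on the same chromosome (chr1:130865669-130880791, plus strand). Fcgr1 lies at chr3:96282909-96293969, Fcgrt at chr7:45092990-45103851 and Fcer2a at chr8:3681737-3694175, all on the minus strand. No run of 50 bases was shared between the last 500 transcript bases of any pair of the 8 genes, the part that a 3′ library reads. Antisense genes overlap Fcgr2b (Gm38204) and Fcgrt (Gm45669), and neither is a row of the count table.

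The promoters of the IgG receptor genes and of Fcmr are shown because the IgG receptor genes were high in PT macrophages in the values below (Fcgr3 in neutrophils too), while Fcmr was highest in B cells. RefSeq promoters of GRCm38.p6 were found for all 8 genes (11 entries, since Fcgr3 and Fcer2a have several starts) and searched on both strands over the 250 bases before the start. The purine-rich hexamer GAGGAA, a core bound by ETS factors such as PU.1, was present for 4 of the 8 genes, Fcgr1, Fcgr3, Fcgr4 and Fcmr, and in 23.3% of 32851 promoters. The lines below hold the 150 bases before the start, 5′ to 3′ on the strand of the gene. GAGGAA read on the other strand (TTCCTC) is in capitals. Fcer1g, Fcgr2b and Fcgrt, also high in PT macrophages, have no match, and Fcer1g has the highest level of the 8 genes there. Of these, Fcgr2b is set beside the others. For Fcgr3 the upstream one of its RefSeq starts is shown, and of the starts shown, those of Fcgr2b, Fcgr3, Fcgr4 and Fcmr lie inside the GENCODE genes, as do the bases in capitals of Fcgr3 and Fcmr.
Fcgr1, chr3:96293970-96294119, minus strand: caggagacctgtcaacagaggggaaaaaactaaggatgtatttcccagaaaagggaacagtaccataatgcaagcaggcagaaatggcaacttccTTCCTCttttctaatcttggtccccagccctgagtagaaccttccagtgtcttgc
Fcgr3, chr1:171059404-171059553, minus strand: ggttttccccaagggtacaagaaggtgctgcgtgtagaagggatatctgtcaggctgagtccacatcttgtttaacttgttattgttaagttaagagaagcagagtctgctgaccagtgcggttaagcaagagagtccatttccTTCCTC
Fcgr4, chr1:171018776-171018925, plus strand: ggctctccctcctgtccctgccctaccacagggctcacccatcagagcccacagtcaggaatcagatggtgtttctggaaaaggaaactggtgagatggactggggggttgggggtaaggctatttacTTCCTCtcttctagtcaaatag
Fcgr2b, chr1:170976072-170976221, minus strand: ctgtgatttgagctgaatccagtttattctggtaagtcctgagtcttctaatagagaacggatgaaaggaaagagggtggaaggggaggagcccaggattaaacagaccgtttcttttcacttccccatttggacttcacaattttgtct
Fcmr, chr1:130865627-130865776, plus strand: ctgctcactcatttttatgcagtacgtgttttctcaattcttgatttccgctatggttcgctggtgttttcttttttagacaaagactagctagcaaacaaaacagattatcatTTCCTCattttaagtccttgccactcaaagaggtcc

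Counted from the start, the hexamer lay at -55 to -50 in Fcgr1, -6 to -1 in Fcgr3, -22 to -17 in Fcgr4 and -36 to -31 in Fcmr. TTCNNNGAA, the spacing that STAT factors bind, was present only in Fcgr1 among the 8 (-109 to -101) and in 7.02% of all promoters. GAAANNGAAA, the repeat bound by interferon regulatory factors, was present only in Fcgr4 among the 8 (-73 to -64) and in 2.98% of promoters. CAGCTG, an E box, was found in Fcer2a and Fcmr and in 13% of promoters. These matches describe letters in the windows searched, and no binding was measured here.

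Fcer1g, the signalling chain, had the highest level of the 8 genes in every myeloid and NK group. Levels are CPM (the UMIs of the gene over all UMIs of the class in that library, times 1000000), and 3′ counts of this kind do not scale with transcript length, although capture may differ between genes. The level was 3166 in LN neutrophils (2811 to 3552; 289 UMIs in 37 cells) and 3146 in LN monocytes (2821 to 3499; 341 UMIs in 26 cells). It was 2427 in PT monocytes (2309 to 2550) and 2104 in PT macrophages (2048 to 2161; 5355 UMIs in 592 cells). These 4 groups stood above NK cells, in which the level was 1750 in LN (1566 to 1951) and 1682 in PT (1405 to 1997), and PT neutrophils, in which it was 1423 (1301 to 1553).

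Plasmacytoid dendritic cells of LN followed with 849 (748 to 960), and dendritic cells lay far lower, at 251 in LN (218 to 287) and 251 in PT (181 to 339). B cells had 2.13 CPM (1.30 to 3.28), and cancer cells 3.52 in PT. PT T cells had 110 (91.9 to 130) against 15.3 in LN T cells (13.2 to 17.6), but the class was made of different clusters: cluster 4, led by Cd8a and Cxcr6 and with Nkg7 and Klrd1 among its leading genes, held 505 of 582 PT and 30 of 3697 LN T cells. The PT T cell class also held UMIs of 4 of 6 NK markers with a sum of 366 CPM (Eomes 225, Klre1 116, Klra4 and Klra8 at 0), against a sum of 34.4 in LN T cells, and their part in the Fcer1g level was not tested.

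The share of cells with an Fcer1g UMI depends on depth, so every cell was also thinned to 1000 UMIs, with shallower cells left out. After thinning the share was 91.9% in LN monocytes, 91.3% in LN neutrophils, 88.3% in PT monocytes, 82.8% in PT and 82.6% in LN NK cells, and 78.8% in PT macrophages (75.1 to 82.1). In PT neutrophils it was 67.4% (54.0 to 79.1) over the 59 of 306 cells deep enough, and 66.0% unthinned. LN T cells, which mostly lack this chain, gave 0.985%, LN B cells 0.231% and PT T cells 5.21% (3.35 to 7.68). PT macrophages held 1 cell with 134 Fcer1g UMIs, without which their level was 2068.

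**Figure D1:**
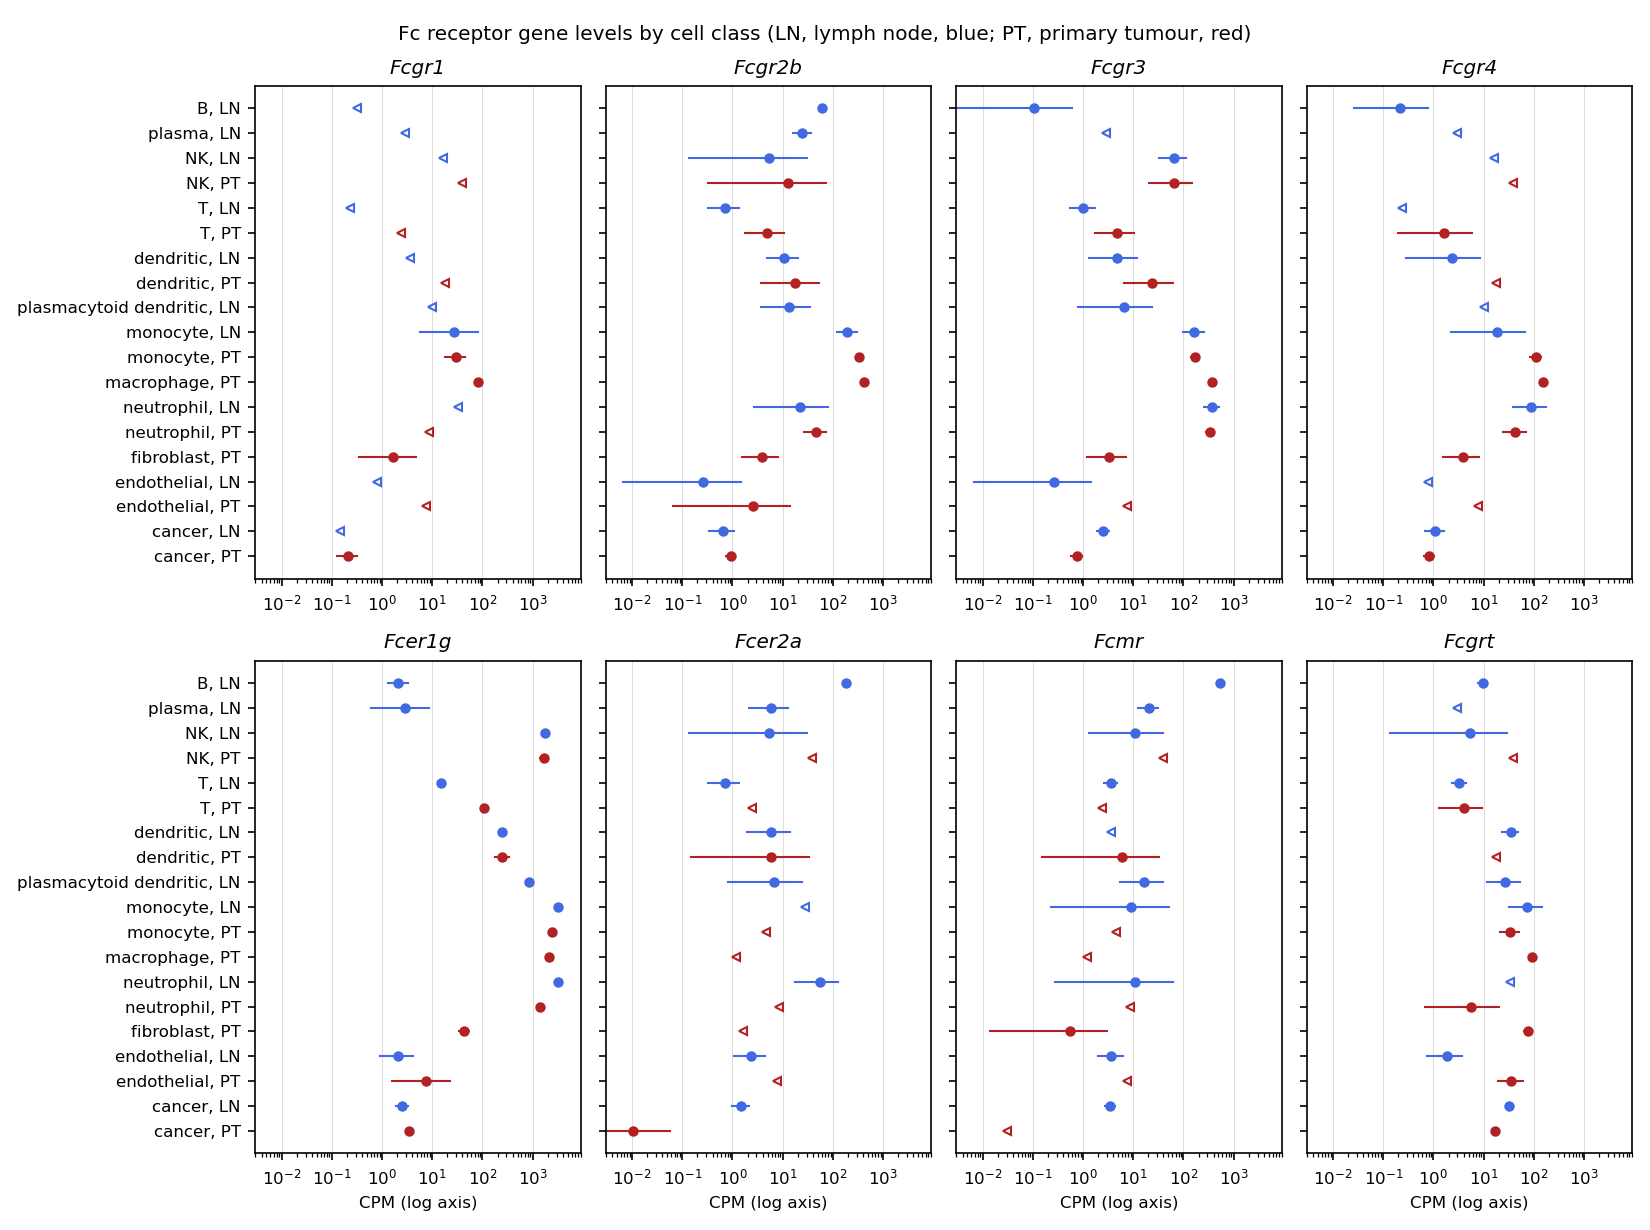
Level of each Fc receptor gene in each class and library with at least 20 kept cells, as CPM on a log axis, with lymph node in blue and primary tumour in red. Points are levels with 95% exact Poisson intervals, and open triangles mark groups with no UMI, drawn at the level that 3 counts would give; Fcgr1 and Fcgr2b are highest in PT macrophages, Fcgr3 overlaps between PT macrophages and neutrophils of both libraries, and Fcer2a and Fcmr are highest in LN B cells.

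Fcgr1, which encodes the high-affinity IgG receptor CD64, was detected mainly in macrophages and monocytes. PT macrophages had 80.9 CPM (70.3 to 92.8; 206 UMIs), PT monocytes 29.3 (17.7 to 45.8; 19 UMIs) and LN monocytes 27.7 (5.71 to 80.9; 3 UMIs). The interval of PT macrophages did not overlap that of PT monocytes, while the monocytes of both libraries could not be separated. No Fcgr1 UMI was found in B, NK, T, dendritic or neutrophil cells. There 3 counts correspond to 0.319 CPM in LN B cells, 8.54 in PT neutrophils, 16.1 in LN NK cells and 17.9 in PT dendritic cells. They correspond to 32.9 in LN neutrophils and 38.8 in PT NK cells, levels as high as those of the monocytes. Of the macrophages 23.5% held a UMI, 7.69% after thinning (5.60 to 10.3), against 0.0348% of thinned PT cancer cells. All kept LN cells together held 6 Fcgr1 UMIs, against 346 in PT.

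Fcgr3, the CD16 chain used by NK cells and myeloid cells, was spread over more types. PT macrophages had 374 CPM (351 to 399), LN neutrophils 372 (258 to 520) and PT neutrophils 336 (278 to 402), and these 3 groups overlapped. PT monocytes had 170 (140 to 205) and LN monocytes 166 (98.4 to 262). NK cells came next with 64.7 in PT (21 to 151; 5 UMIs in 27 cells) and 64.2 in LN (33.2 to 112; 12 UMIs in 63 cells). Dendritic cells had 4 UMIs in each library, LN B cells 1 UMI (0.106 CPM) and LN T cells 1.02 CPM. After thinning, 28.5% of PT macrophages, 27.7% of PT neutrophils, 24% of LN neutrophils and 6.73% of LN NK cells (1.96 to 16) held an Fcgr3 UMI, against 0.502% of PT and 0.0986% of LN T cells and 0.257% of LN cancer cells. LN cancer cells, at 2.56 CPM for Fcgr3 and 1.08 for Fcgr4, held 33.8% and 52.4% of the UMIs of these genes in kept LN cells. They also held 20346228 of the 50304475 kept LN UMIs of all genes. Over all kept LN cells the levels were 3.06 for Fcgr3 and 0.835 for Fcgr4. The Fcgr4 share rests on 22 of 42 UMIs (36.4 to 68.0%).

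Fcgr4, which encodes a myeloid receptor for IgG2a and IgG2b, followed macrophages and monocytes of PT. The level was 152 CPM in PT macrophages (137 to 168), 108 in PT monocytes (84.3 to 137), 87.6 in LN neutrophils (37.8 to 173; 8 UMIs) and 42.7 in PT neutrophils (23.9 to 70.4; 15 UMIs). The interval of PT macrophages touched that of PT monocytes at the digits printed and overlapped that of LN neutrophils. LN monocytes had 18.5 (2.23 to 66.7), from 2 UMIs that lay in 1 cell. NK cells had no Fcgr4 UMI, which allows up to 16.1 CPM in LN and 38.8 in PT at 3 counts, so that Fcgr3 was the one activating chain detected in them. Thinned shares were 12.5% in PT macrophages (9.87 to 15.6) and 9.05% in PT monocytes (5.98 to 13), against 0.0721% in PT cancer cells.

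Fcgr2b, the inhibitory receptor, reached 420 CPM in PT macrophages (396 to 446; 1070 UMIs), 326 in PT monocytes (283 to 373) and 194 in LN monocytes (120 to 296). LN B cells had 61.4 (56.5 to 66.7; 578 UMIs) and, being 4581 cells, held 79.8% of the Fcgr2b UMIs of kept LN cells. PT neutrophils had 45.5 (26.0 to 73.9), which overlaps the B cells, and plasma cells were lower than B cells (24.3; 15.7 to 35.8). T cells had 4.83 in PT and 0.705 in LN, and cancer cells 0.930 and 0.639. Of thinned cells, 33.3% of PT macrophages (29.3 to 37.4), 26.5% of PT monocytes and 5.95% of LN B cells (5.28 to 6.68) held a UMI, against 0.590% of PT and 0.0535% of LN T cells.

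The balance of inhibitory and activating chains was read as the share of Fcgr2b among the UMIs of the 4 IgG receptor genes. In LN B cells Fcgr2b made up 99.5% (98.5 to 99.9; 578 of 581 UMIs), and in plasma cells all 25 UMIs (86.3 to 100%). PT monocytes had 51.5% (46.5 to 56.4), LN monocytes 47.7% (32.5 to 63.3) and PT macrophages 40.9% (39.0 to 42.8), with Fcgr3 at 36.4%, Fcgr4 at 14.8% and Fcgr1 at 7.88% of the macrophage UMIs. Neutrophils were at the other end, with 10.7% in PT (6.26 to 16.9; 149 UMIs), which was 6.35% with doublets kept, and 4.55% in LN (0.555 to 15.5; 44 UMIs), and Fcgr3 made up 79.2% and 77.3% of theirs.

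UMIs of both kinds of chain were found in single cells. Of PT macrophages thinned to 1000 UMIs, 16.1% (13.1 to 19.5) held a UMI of an activating chain together with one of Fcgr2b, where 40.4% held the former and 33.3% the latter. Without thinning these were 289 cells (48.8%). The thinned share was 6.95% in PT monocytes (4.28 to 10.6) and 1.61% in PT neutrophils. An activating chain together with Fcer1g was found in 32.2% of PT macrophages (28.3 to 36.3), 20.7% of PT monocytes (16.1 to 25.8) and 5.68% of LN NK cells (1.42 to 14.6). In PT T cells these pairs were found in 0.00186% and 0.227%, and in PT cancer cells in 0.000743% and 0.00637%. Taken singly, an activating chain and Fcer1g were found in 40.4% and 78.8% of PT macrophages. These single shares were 23.4% and 88.3% in PT monocytes and 6.73% and 82.6% in LN NK cells. Whether the pairs were more frequent than the single shares would give was not tested.

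**Figure D2:**
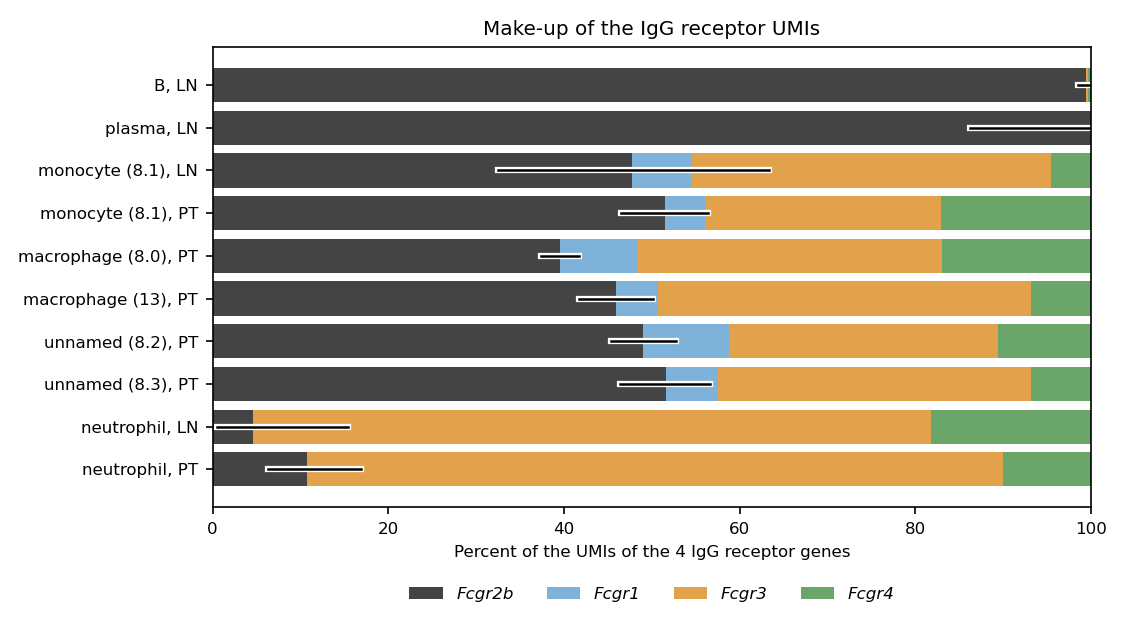
Make-up of the UMIs of the 4 IgG receptor genes in each class or cluster (cluster numbers in brackets), as percent of their sum, with 95% exact binomial intervals drawn for the Fcgr2b share. Fcgr2b fills nearly all of the bar in B and plasma cells, 40.9% over both macrophage clusters together and 10.7% in PT neutrophils, where Fcgr3 fills most.

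Fcmr and Fcer2a were genes of LN B cells. Fcmr had 534 CPM in LN B cells (519 to 549; 5023 UMIs), which held 95% of the Fcmr UMIs of kept LN cells. Fcer2a had 185 (177 to 194; 1742 UMIs) and 94.1% of the LN total. After thinning, 41.0% of B cells held an Fcmr UMI (39.5 to 42.4), 16.4% an Fcer2a UMI (15.4 to 17.6) and 7.10% both (6.37 to 7.89). LN T cells gave 0.248% for Fcmr and 0.0713% for Fcer2a.

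Outside B cells both genes were far lower. LN T and cancer cells had Fcmr at 3.61 (2.64 to 4.81) and 3.49 (2.73 to 4.40), above the 0.235 and 0.147 that 3 counts give, and an unnamed LN cluster of 41 cells, which carried B and T cell markers, had 215 (154 to 293; 40 UMIs). Neither had a UMI in PT macrophages, PT monocytes or PT neutrophils, where 3 counts correspond to 1.18, 4.63 and 8.54 CPM. All kept PT cells together held 5 UMIs of each gene, and 3 of the 5 lay in the 8 PT B cells for Fcmr and likewise for Fcer2a. LN plasma cells had 20.4 for Fcmr (12.6 to 31.2) and 5.82 for Fcer2a (2.14 to 12.7). Fcer2a in LN neutrophils was 54.8 (17.8 to 128), from 5 UMIs in 2 of 37 cells. That class held UMIs of 5 of 6 B cell markers with a sum of 438 CPM (Cd79b 230, Cd79a 131, Pax5 at 0), against 2 of 6 and 8.54 in PT neutrophils. Without the cells that held a UMI of a B, cancer or basophil marker, a choice made after seeing the data, no Fcer2a UMI was left.

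Fcgrt was the member with most of its UMIs outside blood cells. PT macrophages had 90.8 CPM (79.4 to 103), PT fibroblasts 76.6 (64.4 to 90.5) and LN monocytes 73.8 (31.9 to 145; 8 UMIs), and these overlapped. PT endothelial cells had 35.6 (19.4 to 59.7), LN dendritic cells 34.3 (23.0 to 49.3) and PT monocytes 34.0 (21.3 to 51.4). LN endothelial cells had 1.84 (0.739 to 3.79), but 189 of these 193 cells lay in cluster 22, led by Glycam1, which held no PT cell, and all 50 PT cells in another cluster, led by Cdh5 and Fabp4. The PT class also held cancer and mural markers at 925 and 874 CPM, against 116 and 5.25, and the median cell held 6104 and 16085 UMIs, so that the levels do not compare like cells between tissues. Cancer cells had 31.4 in LN (29.0 to 33.9) and 16.7 in PT (15.9 to 17.5), with 510 of the LN cells in cluster 21, which held no PT cell, and medians of 35044 and 14052 UMIs in a cell. The 609 LN and 6100 PT cancer cells held 72.8% and 77.6% of all kept Fcgrt UMIs of these libraries. They also held 20346228 of 50304475 and 96782591 of 105387716 kept UMIs of all genes. Over all kept cells Fcgrt was at 17.5 CPM in LN and 19.7 in PT, so that PT cancer cells lay below the level of their library. LN B cells had 9.67 (7.79 to 11.9), and PT dendritic and LN neutrophil cells had none, which allows up to 17.9 and 32.9 at 3 counts. T cells had 4.03 in PT (1.31 to 9.40) and 3.21 in LN (2.31 to 4.36). Thinned shares were 10.5% in PT fibroblasts, 8.77% in PT macrophages, 3.24% in LN cancer cells and 1.82% in PT cancer cells.

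LN was then set against PT within each class that had enough cells in both, as the log2 ratio of CPM with 0.5 counts added to each sum. A gene was counted as higher or lower at a ratio of at least 2-fold, over genes with at least 20 UMIs in the pair. In NK cells 1 member had enough UMIs: Fcer1g, at 1750 in LN and 1682 in PT, gave a log2 ratio of 0.05 (-0.24 to 0.36), so that a 2-fold difference lies outside its counting interval. Fcgr3 had 12 UMIs against 5, and its log2 ratio of -0.09 (-1.62 to 1.85) leaves the direction undetermined at this depth. LN NK cells held UMIs of all 6 T cell markers with a sum of 883 CPM, against 2 of 6 and 90.5 in PT NK cells. The part of these markers in the ratios was not tested. Over all 1951 genes counted in NK cells 13.1% were higher and 9.07% lower in LN.

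In dendritic cells Fcer1g was at 251 in both libraries, with a log2 ratio of -0.01 (-0.48 to 0.51). This value moved with the choice of cells, to -1.45 with doublets kept and to 1.06 with no upper limit on detected genes. The make-up of the class also differed. Cluster 5.0, led by Ccl22 and Fscn1, held 36 of 38 PT but 81 of 143 LN dendritic cells, and within it Fcer1g was at 404 in LN (348 to 467) and 262 in PT (189 to 354), a log2 ratio of 0.61 (0.14 to 1.15). Cluster 5.1 of LN (73 cells), led by Clec7a and Csf1r among others, carried markers of a second class and stayed unnamed, with Fcer1g at 1206 and Fcgrt at 94.6. Cluster 5.2, led by Xcr1 and Clec9a, held 41 LN cells, with Fcer1g at 73.4 (48.4 to 107). Fcgrt had 29 UMIs in LN and 0 in PT dendritic cells, at least 1.91-fold higher against 3 counts over the PT class. Of the 29 UMIs, 26 came from cluster 5.2 (70.7 CPM; 46.2 to 104) and 3 from cluster 5.0, where PT had 0. With the added 0.5 counts 1 of the 2 members counted, Fcgrt, was past 2-fold higher and 0 lower, although its bound falls short of 2-fold, and 10.2% of 4757 genes were higher and 13.9% lower.

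In monocytes Fcer1g was higher in LN, at 3146 against 2427, a log2 ratio of 0.38 (0.20 to 0.54). With cells marked as doublets kept, this ratio was 0.0051. Fcgr2b was lower in LN, at 194 against 326, with a log2 ratio of -0.72 (-1.47 to -0.10). Fcgr4 had 2 UMIs in LN and 70 in PT and a log2 ratio of -2.24 (-5.62 to -0.64), which moved to -0.62 with doublets kept. Fcgr3 was at 166 and 170, with a log2 ratio of 0.00 (-0.84 to 0.69), and Fcgr1 at 0.10 (-2.48 to 1.68) and Fcgrt at 1.17 (-0.26 to 2.34) had intervals that include no difference. At the 2-fold limit Fcgrt was higher and Fcgr4 lower among the 6 members counted, where 10.3% of 4255 genes were higher and 15.6% lower. The LN class was 26 cells. The median cell held 3790.5 UMIs in LN and 1860 in PT. Monocyte markers summed to 4078 CPM in LN and 2279 in PT, and cancer markers to 46.1 and 236. B cell markers summed to 64.6 and 3.09, and T cell markers to 120 and 17.0. C1qa, C1qb and C1qc had UMIs in PT monocytes but none in LN monocytes. The part of depth and of these markers in the ratios was not tested.

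In neutrophils Fcer1g was higher in LN, at 3166 against 1423, a log2 ratio of 1.16 (0.94 to 1.37), or 2.23-fold, and 0.41 with doublets kept. Fcgr3 did not differ beyond its counting interval, at 372 and 336 with a log2 ratio of 0.16 (-0.45 to 0.71), and Fcgr4 (8 and 15 UMIs) had a log2 ratio of 1.08 (-0.41 to 2.37). At the 2-fold limit Fcgr4 and Fcer1g were higher and 0 lower among the 3 members counted, and over 2587 genes 10.7% were higher and 28.5% lower. The median over the 3 members was 1.08, and that over all genes -0.34.

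Several measures of these neutrophils moved with that difference. The typical cell held 1981 UMIs in LN and 729 in PT (medians). PT neutrophils held UMIs of all 6 cancer markers, with a sum of 1855 CPM (Krt8 734, Krt18 699.9), where the LN class had 4 of 6 and a sum of 87.6. LN neutrophils held UMIs of all 6 mast cell or basophil markers with a sum of 2322, against 5 of 6 and 1400 in PT. Hdc made up 1785 and 1357 of these sums, Mcpt8 was at 219 against 2.85 and Cyp11a1 at 186 against 14.2. Basophils carry Fcer1g as part of the high-affinity IgE receptor. Its alpha chain Fcer1a had 3 UMIs in LN neutrophils. Without cells that held a UMI of a cancer, B or mast cell or basophil marker other than Hdc, 215 of 306 PT and 26 of 37 LN cells were left, with Fcer1g at 1912 (1713 to 2127) and 3238 (2802 to 3722) and a log2 ratio of 0.76. Fcgr3 was then at 431 and 458, and Fcgr4 at 73.7 and 114. The part of depth in the difference was not tested.

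**Figure D3:**
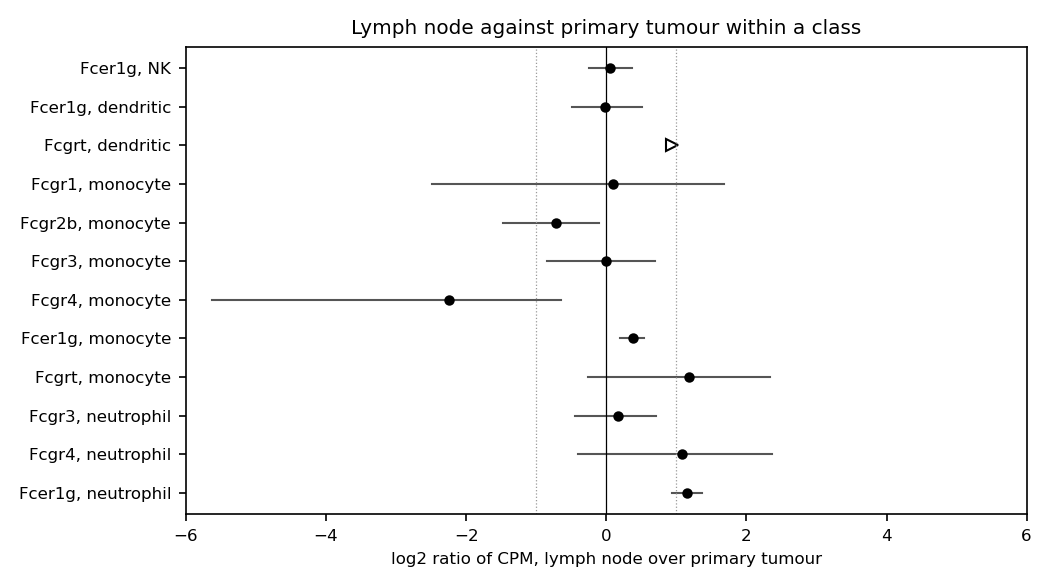
Ratio on a log2 scale of the CPM in LN to that in PT for each member with at least 20 UMIs in the class, with 95% intervals for counting error (points and lines) and dotted lines at 2-fold. The open triangle is a lower bound of 1.91-fold for a gene with no PT UMI; Fcer1g in neutrophils lies at 1.16 and Fcgr3 in neutrophils and monocytes near 0.

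Within PT, macrophages were set against monocytes. The 5 receptor chains with UMIs there were higher in macrophages by their counting intervals, with log2 ratios of 1.43 for Fcgr1 (0.78 to 2.23), 1.13 for Fcgr3 (0.85 to 1.44), 0.48 for Fcgr4 (0.12 to 0.88), 0.37 for Fcgr2b (0.15 to 0.59) and 1.39 for Fcgrt (0.78 to 2.12). The signalling chain was lower over the class, at -0.21 for Fcer1g (-0.29 to -0.12). At 2-fold, 3 of the 6 members counted were higher (Fcgr1, Fcgr3 and Fcgrt) and 0 lower, against 19.8% of 8211 genes higher and 9.12% lower, and the median was 0.81 for the members and 0.21 for all genes.

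The macrophage class was not uniform. Cluster 8.0 (361 cells), led by C1qa, C1qb, C1qc, Apoe and Mrc1, had Fcgr1 at 130 (111 to 150), Fcgr2b at 588 (549 to 630), Fcgr3 at 517 (480 to 557), Fcgr4 at 252 (226 to 280) and Fcgrt at 163 (142 to 186) CPM. Cluster 13 (231 cells), led by Cxcl5, Lpl, Gpnmb and Mmp12, had Fcgr1 at 23.2 (15.3 to 33.8), Fcgr2b at 221 (195 to 250), Fcgr3 at 205 (179 to 232), Fcgr4 at 32.7 (23.1 to 44.8) and Fcgrt at 5.16 (1.89 to 11.2). The clusters did not overlap in any of the 5 genes, and cluster 13 was no higher than PT monocytes in Fcgr1 and lower than them in Fcgr4, Fcgr2b and Fcgrt. The macrophage class thus stood above monocytes in Fcgr1, Fcgr2b, Fcgr4 and Fcgrt through cluster 8.0 alone.

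As log2 ratios of cluster 8.0 over cluster 13, these were 2.46 for Fcgr1 (1.89 to 3.12), 1.41 for Fcgr2b (1.21 to 1.62), 1.34 for Fcgr3 (1.12 to 1.56), 2.93 for Fcgr4 (2.46 to 3.47) and 4.87 for Fcgrt (3.84 to 6.44). Fcer1g went the other way, at 1755 in cluster 8.0 (1686 to 1826) and 2519 in cluster 13 (2429 to 2612), a log2 ratio of -0.52 (-0.60 to -0.44). The level in cluster 13 overlapped that of PT monocytes (2427; 2309 to 2550), so that the lower Fcer1g of the macrophage class came from cluster 8.0. At 2-fold, 5 of 6 members were higher and 0 lower, and 9.43% of 7817 genes were higher and 12.7% lower. The median was 1.93 for the members and -0.19 for all genes. The Fcgr2b share was 39.6% in cluster 8.0 (37.4 to 41.7) and 45.9% in cluster 13 (41.7 to 50.1). The medians of UMIs in a cell were 3136 and 3857. All 6 cancer markers had UMIs in both clusters, with sums of 220.0 CPM in cluster 8.0 and 475 in cluster 13, and all 6 monocyte markers with sums of 797 and 223. Their part in these differences was not tested.

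Further PT myeloid clusters stayed unnamed, 8.2 and 8.4 because they carried markers of a second class and 8.3 because its cells held few UMIs for this library and no marker was among its leading genes. Cluster 8.2 (314 cells), led by Ptgs2 and Tnf among others, had Fcgr1 at 95.6, Fcgr2b at 482, Fcgr3 at 302, Fcgr4 at 104 and Fcer1g at 2055 but Fcgrt at 12.1 CPM. Cluster 8.3 (110 cells), led by Mgl2 and MHC class II genes, had Fcgr1 at 57.9, Fcgr2b at 496, Fcgr3 at 342, Fcgr4 at 65.4, Fcer1g at 1870 and Fcgrt at 62.9. Cluster 8.4, led by Ccl8 and C1qc and with cancer markers as those of the second class, held 19 cells, too few for a level. Unnamed clusters together held 28.3% of the Fcgr1, 29.8% of the Fcgr2b and 23.8% of the Fcgr3 UMIs of kept PT cells, so the class values above leave out that part.

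**Figure D4:**
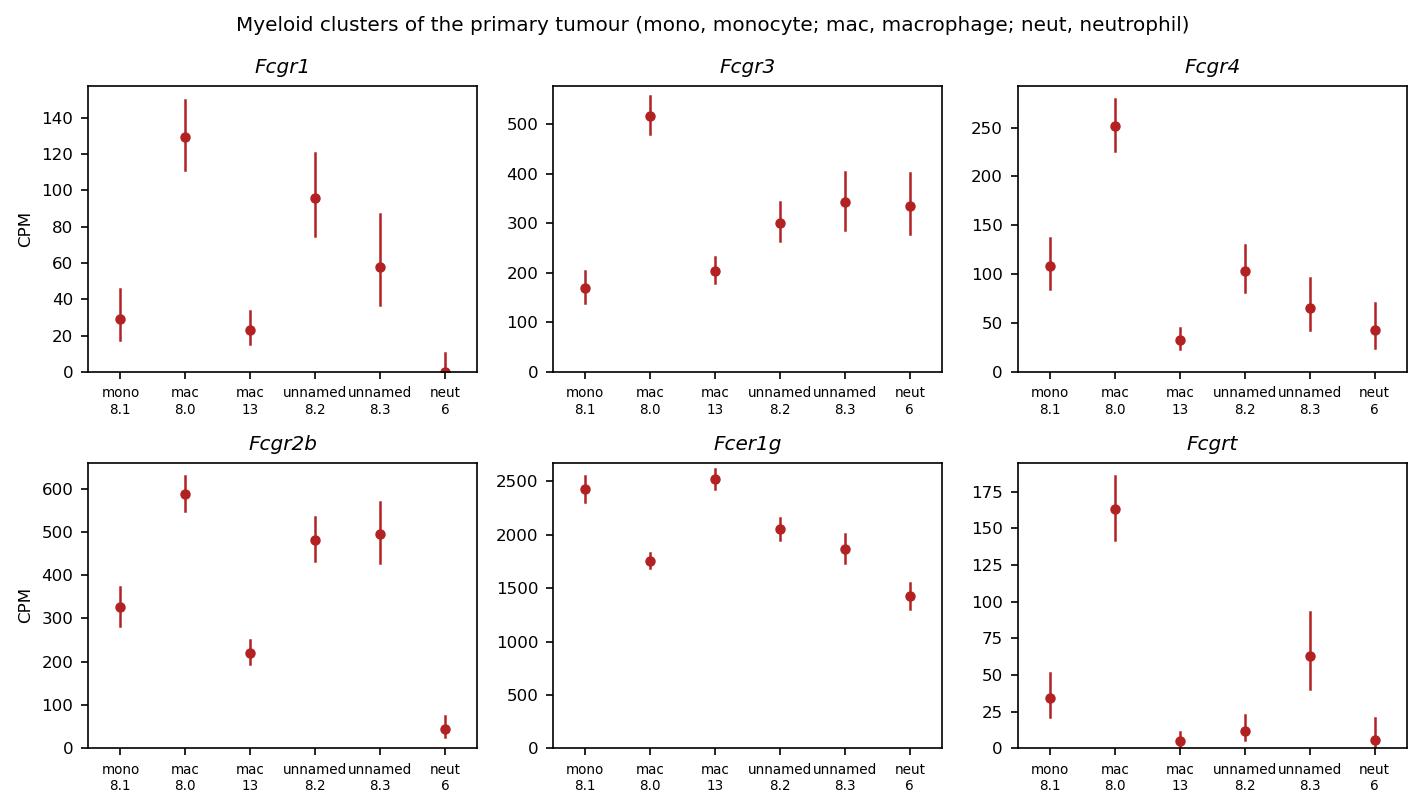
Levels of Fcgr1, Fcgr3, Fcgr4, Fcgr2b, Fcer1g and Fcgrt, as CPM on linear axes, in the myeloid clusters of the primary tumour (cluster number under its class), with 95% exact Poisson intervals. Cluster 8.0 has the highest levels of the 4 IgG receptor genes and of Fcgrt (163), with intervals that overlap cluster 8.2 in Fcgr1 and cluster 8.3 in Fcgr2b. Cluster 13 has the highest Fcer1g (2519), with an interval that overlaps that of monocyte cluster 8.1.

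B cells of LN fell into a pair of large clusters and a small one. Cluster 15 (2522 cells) had Fcmr at 522 (502 to 543), Fcer2a at 179 (167 to 191) and Fcgr2b at 52.1 (45.9 to 58.9) CPM, and cluster 16 (1996 cells) had 587 (564 to 611), 209 (195 to 224) and 76.4 (68.2 to 85.3). Both were led by Ighd, which encodes the IgD heavy chain of mature naive B cells. Cluster 20.2 (63 cells) was led by Rgs13 and Mef2b among others, genes of the germinal centre, and had Fcmr at 143 (109 to 185), Fcer2a at 21.9 (10.0 to 41.6) and Fcgr2b at 21.9 from 9 UMIs.

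Against clusters 15 and 16 together, the log2 ratio of cluster 20.2 was -1.93 for Fcmr (-2.34 to -1.57), -3.06 for Fcer2a (-4.27 to -2.21) and -1.45 for Fcgr2b (-2.67 to -0.60). Fcgrt had 0 UMIs against 91, at least 1.39-fold lower at 3 counts over the cluster, and Fcer1g had 0 against 20. With 0.5 counts added, 4 of 5 members (Fcgr2b, Fcer2a, Fcmr and Fcgrt) were at least 2-fold lower and 0 higher, where 18.6% of 9434 genes were lower and 15% higher, and the medians were -1.93 and -0.02. With the 2 genes that had 0 UMIs set at their bound, 3 of 5 were past 2-fold lower and 1, Fcer1g, past 2-fold higher, since 3 counts exceed its level in clusters 15 and 16, so that its direction is undetermined at this depth, and the median was -1.45. The median cell of cluster 20.2 held 5698 UMIs, and that of cluster 15 held 1741. Plasma cells gave the second highest marker score in cluster 20.2, with 1 plasma marker raised. The part of depth and of plasma markers in these ratios was not tested. Plasma cells, cluster 20.1, had the lowest Fcmr of these clusters, at 20.4, with Fcgr2b at 24.3.

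**Figure D5:**
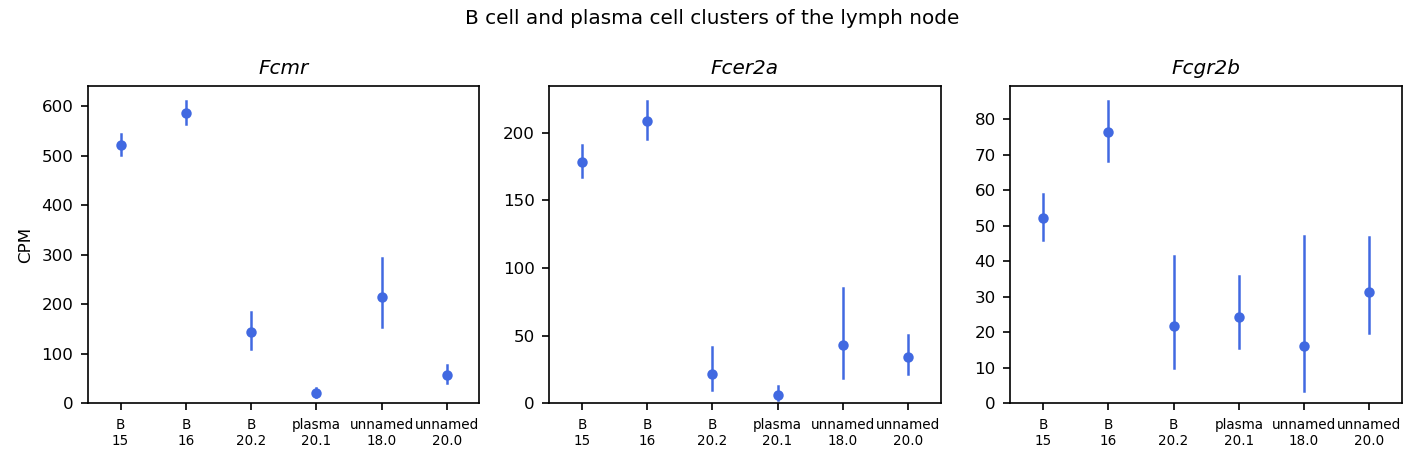
Levels of Fcmr, Fcer2a and Fcgr2b, as CPM on linear axes, in the B cell, plasma cell and unnamed clusters of the lymph node (cluster number under its class), with 95% exact Poisson intervals. Clusters 15 and 16 stand above all others in Fcmr (522 and 587) and Fcer2a, and cluster 20.2 has Fcmr at 143.

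The 41 further genes of 5 lists around these receptors were read in the same cells. Among genes that pair with the gamma chain, Clec4e (Mincle) was at 1808 CPM in PT monocytes and 1713 in PT neutrophils, Clec4d at 1293 in LN neutrophils, and Clec4n (Dectin-2) at 842 in PT macrophages. NK cells had Klrb1c (NK1.1) at 272 in PT and Ncr1 (NKp46) at 166 in LN, both of them markers by which the class was named. Tyrobp, the DAP12 adaptor that acts beside the gamma chain, was at 4425 in LN neutrophils, 2888 in LN monocytes, 2012 in LN NK cells and 1251 in PT macrophages. Of the 11 other Fc and Fc receptor-like genes, 3 were highest in LN B cells: Fcrla (234), Fcrl1 (84.5) and Fcrl5. B2m, the light chain of FcRn and of MHC class I, was the highest of that list in all 10 groups, from 854 in LN neutrophils to 3542 in PT dendritic cells.

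On the inhibitory side, LN B cells had Inpp5d at 273, Cd72 at 171 and Cd22 at 139, and Pirb, an inhibitory receptor for MHC class I, led in PT monocytes (229) and LN neutrophils (230.0). Lyn at 356 and Syk at 268 were the highest ITAM genes of LN B cells. Cr2 (CD21) was at 70.0 in LN B cells and had no UMI in the other 9 groups, while Adam10, the protease that sheds CD23, was at 55.3 in B cells and between 42.6 and 142 in the others.

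Counts of list genes are given beside the shares over all genes. In neutrophils 4 of 6 ITAM genes counted were at least 2-fold higher in LN (Tyrobp, Lyn and Fgr among them) and 0 lower, with Tyrobp at a log2 ratio of 1.18 (1.00 to 1.36), and 2 of 3 inhibitory genes were higher (Ptpn6 and Pirb), where 10.7% of all genes were higher and 28.5% lower. The depth and the cancer and basophil markers given above for Fcer1g moved with these counts too, and their part was not tested. Between PT macrophages and monocytes the direction was opposite to that of the receptors: 7 of 11 ITAM genes were at least 2-fold lower in macrophages (Syk, Lyn, Fgr, Fyn, Plcg2 and Lcp2 among them) and 1 higher (Lat2), where 9.12% of all genes were lower and 19.8% higher, and their median was -1.22, where that of all genes was 0.21. Syk was at 229 in macrophages and 534 in monocytes.

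Between macrophage clusters 8.0 and 13, none of 11 ITAM genes was past 2-fold, and Tyrobp had a log2 ratio of -0.28 (-0.38 to -0.18). Of the 6 gamma chain partners counted, Fcgr1, Fcgr3 and Fcgr4 were higher in cluster 8.0, whereas Clec4n (-2.72; -2.90 to -2.55), Clec4d (-1.43) and Clec4e (-1.34) were lower, where 9.43% of all genes were higher and 12.7% lower. In B cell cluster 20.2, 5 of 10 ITAM genes (Tyrobp, Lyn, Fyn and Btk among them) and 3 of 6 Fc receptor-like genes (Fcrla, Fcrl5 and Pigr) were at least 2-fold lower than in clusters 15 and 16, where 18.6% of all genes were lower. Cr2 was lower with Fcer2a, at a log2 ratio of -2.44 (-4.21 to -1.35), while Syk was at 258 and 269. Between libraries, list genes past 2-fold were no more than 3 in a direction in monocytes (2 higher and 3 lower of 23, where all genes gave 10.3% and 15.6%), NK cells (1 and 1 of 10; 13.1% and 9.07%) and dendritic cells (2 and 2 of 15; 10.2% and 13.9%). Within dendritic cluster 5.0, 1 of 12 was higher (Tyrobp) and 4 lower (Syk, Fyn, Inpp5d and Ptpn11), where all genes gave 9.78% and 10.7%.

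Finally, the genes whose levels were most like those of each member were found over the 19 groups of class and library, as Pearson's r of log2(CPM + 10) among 4393 genes that reached 100 in a group. These groups share 2 libraries and their depth, and r is given as a description. Trem2, F13a1, Msr1, Adgre1 and Pax5 below are also among the markers by which classes were named. Fcgr1 was nearest to Trem2 (0.98), F13a1 (0.98) and Msr1 (0.97). Fcgr2b was nearest to Clec4a1 (0.90), Adgre1 (0.89) and Clec4a3 (0.88), Fcgr3 to Cd300lf (0.94), Lilr4b (0.93) and Acod1 (0.92), and Fcgr4 to Clec4n (0.95), C5ar1 (0.95) and Fpr2 (0.94). Fcer1g was nearest to Tyrobp (0.97), Abr (0.92) and Myo1f (0.92). Fcer2a was nearest to Ighd (0.94), Bank1 (0.91) and H2-Ob (0.89), and Fcmr to Ighd (0.97) and Pax5 (0.95). Fcgrt had the weakest likeness, with Eif4e (0.80) and Anxa5 (0.77) among its nearest genes. Among the members, Fcgr3 with Fcer1g (0.88), Fcer2a with Fcmr (0.88), Fcgr1 with Fcgr2b (0.86) and Fcgr3 with Fcgr4 (0.85) were the pairs most alike.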

How the data were processed

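The deposited values are raw counts of UMIs for each gene in each cell, from 1 primary tumour and 1 lymph node library. The authors sequenced 10x Genomics 3′ libraries and aligned them to GRCm38 (Cell Ranger 2.1.1 per the submitters' processing notes, 5.0.0 per the file headers). Their stated limits on cells were not met by the deposited cells and were applied here: more than 200 detected genes, no more than 6000, and a mitochondrial share of UMIs up to 5%. Scrublet in scanpy 1.11.5 marked 428 (4.68%, automatic threshold) and 616 (5.98%, the 94th percentile of scores, since the automatic threshold marked too few) doublets, which were removed, leaving 8719 of 12427 PT cells (105387716 UMIs) and 9689 of 11617 LN cells (50304475 UMIs).

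Counts were scaled to 10000 per cell, and cells of both libraries were clustered together on 30 components with 15 neighbours (Leiden, igraph 0.11.9, resolution 1) without the 8 members and the list genes. Clusters were named from marker lists, by a rule chosen with the data in view. The members and gene lists were chosen with earlier results of these data known. The 8 members are named throughout, with the 3 most like genes of each and the highest genes of each list, except for a few genes that are not reported here. UMIs were summed over a class of at least 20 cells in a library. Levels carry exact Poisson and shares exact Clopper-Pearson intervals (95%), both for counting error only, and a count of 0 was given the limit of 3 counts. Shares of cells were expected shares after thinning to 1000 UMIs. Ratios had 0.5 counts added, and a gene was counted in a ratio at 20 or more UMIs in the pair. Calculations were tested on simulated data (numpy 2.4.6, scipy 1.17.1, pandas 2.3.3). Gene positions came from GENCODE mouse release 21 and promoters from RefSeq (GRCm38.p6). Alternatives were doublets kept, a mitochondrial limit of 10%, no upper gene limit, resolution 2, members allowed in clustering, each library clustered alone, means over single cells, centring on the median gene, at least 100 UMIs in a pair, and leaving out the cell richest in the gene.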

Additional observations from a re-analysis of the deposited data

Results flagged for a closer look

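Cells that were left out of the classes, because they lay outside the limits or were marked as doublets, also held UMIs of these genes, and the gene at the highest level there is given for each library. The 3708 PT cells left out had Fcer1g at 42.7 CPM (41.1 to 44.2; 2898 UMIs), against 101 in kept PT cells. The 1928 LN cells left out had Fcgrt at 24.6 (23.4 to 25.7; 1767 UMIs), against 17.5 in kept LN cells. LN Fcgr4 was at 1.40 in cells left out (1.14 to 1.71) and 0.835 in kept cells. These values lie above the level that 3 counts would give. No group held 4 or more samples, so no sample could be called an outlier, and no member lay on opposite sides of 0 in each sample of 2 groups that could be compared.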

How the results depend on the processing

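No paired analysis was possible because each tissue is 1 library and the shared replicate number leaves 1 pair. Across alternatives 97 of 118 values of the main results moved by less than their counting interval, 21 moved and 0 reversed (a change of sign was counted only for a ratio whose counting interval leaves out 0), and of 591 further values 504 stayed within it. With doublets kept, PT macrophages had Fcgr2b at 387 and Fcgr3 at 350, and the log2 ratio of Fcer1g was -1.45 in dendritic cells, 0.0051 in monocytes and 0.41 in neutrophils. As a mean over single cells, PT macrophages had Fcgr2b at 452, Fcgr3 at 348 and Fcgrt at 109, LN neutrophils Fcer1g at 3735, and LN B cells Fcer2a at 199 and Fcmr at 559. Fcmr in LN B cells was 519 at resolution 2 and 517 with each library clustered alone. The Fcer1g ratio in dendritic cells was 0.72 at a mitochondrial limit of 10%, 1.06 with no upper gene limit and 0.60 at resolution 2, so that, with -1.45 above, its direction depends on the choice of cells. In monocytes it was 0.18 with members allowed in clustering. In neutrophils it was 0.79 with no upper gene limit, 1.49 centred on the median gene and 0.76 without cells holding a UMI of a cancer, B or basophil marker, an alternative chosen after seeing the data. The Fcgr2b share in PT macrophages was 42.9% at the 10% mitochondrial limit. Over genes with at least 100 UMIs in the pair, the shares of all genes past 2-fold moved by over 1.5 times for NK lower (3.95%), monocyte higher (5.22%), dendritic lower (8.97%), dendritic cluster 5.0 lower (6.86%), macrophage over monocyte higher (12.5%) and cluster 8.0 over 13 lower (8.19%). The cause of these moves was not tested. NK cells gave no value under 4 alternatives (no upper gene limit, resolution 2, members allowed, each library alone) and LN monocytes under 2 (the 10% mitochondrial limit, each library alone), where fewer than 20 cells were left or no cluster took that name. Few cells limit the LN monocyte (26), LN neutrophil (37) and PT NK (27) values, and few UMIs per cell (a median of 729) those of PT neutrophils.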
